A study of Mus musculus with 6 samples.

Results

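Histone H3 lysine 9 (H3K9) carries methyl groups that are set by methyltransferases and taken off by demethylases, and the balance of the 2 decides how much of a gene's chromatin bears this repressive mark. This report follows the RNA of *Kdm3a* and 9 further enzymes of that balance in mouse left ventricle. The 10 genes were *Kdm3a*, *Kdm3b* and *Jmjd1c* of the KDM3 demethylases, *Kdm4a*, *Kdm4b* and *Kdm4c* of the KDM4 demethylases, and the methyltransferases *Ehmt1*, *Ehmt2*, *Suv39h1* and *Setdb1*. All probes annotated to these symbols were taken, which gave 20 of the 45281 probes on the array, for 9 of the 10 genes. No named probe was annotated to *Suv39h1*, and this gene was not analysed here.

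Left ventricles of adult male mice on a c57/BL6 background were profiled on 6 Illumina bead arrays, 1 mouse on each. The groups were *Kdm3a*-Tg TAC (2 mice), WT TAC (2 mice), *Kdm3a*-Tg Sham (1 mouse) and WT Sham (1 mouse). TAC, transverse aortic constriction, narrows the aortic arch and loads the ventricle with pressure, and Sham mice had the operation without it. Mice were operated on at 6 to 8 weeks of age, and per the labels the hearts were taken 3 weeks later, a shorter time than the study's text gives for the hearts of its Tg mice. The Tg mice carry a Flag-tagged mouse *Kdm3a* cDNA behind the promoter of *Myh6*, the α-myosin heavy chain gene of heart muscle cells, in addition to their own *Kdm3a*. The labels do not say which of the transgenic lines used in the study gave these hearts. The transgene is selective for myocytes after birth, whereas the RNA came from whole ventricle, so that fewer cells of a type and less RNA per cell cannot be told apart. Because each Sham group held 1 array, nothing here measures the spread between Sham mice.

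KDM3A and its relatives KDM3B and JMJD1C belong to the Jumonji enzymes, which use iron, oxygen and α-ketoglutarate. KDM3A removes mono- and dimethyl groups from H3K9 and is known as a coactivator of hypoxia-responsive and metabolic genes. KDM4A, KDM4B and KDM4C take off tri- and dimethyl groups. In the other direction, EHMT2 (G9a) and EHMT1 (GLP) form a pair that writes mono- and dimethyl H3K9 in euchromatin, SETDB1 writes the trimethyl mark at silenced repeats and genes, and SUV39H1 does so in pericentric heterochromatin. In the adult heart KDM4A is known from mouse models as a promoter of hypertrophy under pressure.

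A Tg ventricle has 2 sources of *Kdm3a* RNA under different promoters. The windows of 250 bases before the start sites are shown, from RefSeq on GRCm38.p6, to set the gene's own promoter beside that of *Myh6*, whose gene the transgene borrows its promoter from. CG pairs, the sites of DNA methylation, are in capitals, and both windows are written 5′ to 3′ on the minus strand, on which both genes lie. The *Kdm3a* window is chr6:71632918-71633167, taken at the most upstream of 3 RefSeq starts, and the *Myh6* window is chr14:54966608-54966857.
*Kdm3a*: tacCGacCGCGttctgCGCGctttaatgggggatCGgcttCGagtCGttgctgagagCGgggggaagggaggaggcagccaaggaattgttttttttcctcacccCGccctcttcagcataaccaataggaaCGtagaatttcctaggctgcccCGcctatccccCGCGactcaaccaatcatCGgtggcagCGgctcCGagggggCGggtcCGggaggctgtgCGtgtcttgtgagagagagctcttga
*Myh6*: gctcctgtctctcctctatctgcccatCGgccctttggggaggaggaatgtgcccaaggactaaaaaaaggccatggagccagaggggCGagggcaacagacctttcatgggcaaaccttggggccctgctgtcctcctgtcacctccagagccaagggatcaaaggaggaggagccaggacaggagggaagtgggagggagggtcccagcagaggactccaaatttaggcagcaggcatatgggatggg
The *Kdm3a* window held 20 CG pairs, and 17.9% of the 32851 mouse windows of the same length held at least as many. The *Myh6* window held 2, and 29.0% of windows held at most as many, while 92.1% held at least 1. Both windows had nearly the same share of G and C, 59.6% in *Kdm3a* and 59.2% in *Myh6*. The extent of the promoter fragment in the transgene is not given in the sources used here, and no part of these sequences was measured on the arrays.

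*Kdm3a* was read first, as the overexpressed gene and a check of the genotype labels. Intensities are the deposited values before normalization, and a probe counts as detected on an array where the deposited detection p-value was below 0.01. Probe ILMN_3118169 gave 34642 and 33540 in the 2 Tg TAC ventricles. It gave 229 in WT TAC replicate 2 and 30614 in the library labelled WT TAC replicate 1. It gave 247 in the library labelled Tg Sham and 341 in WT Sham. The 3 bright arrays and the 3 dim ones were thus separated by a wide step, and no array lay between. The bright arrays were both Tg TAC arrays and 1 of the 2 WT TAC arrays, so on this probe the libraries labelled WT TAC replicate 1 and Tg Sham went against their genotype. Across all 17014 probes detected on at least 2 arrays, none had a wider range than this one. Its normalized log2 intensity spanned 7.91 units, against a median range of 0.66 over all these probes.

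The other 3 *Kdm3a* probes showed no step. Probe ILMN_2707895 gave 497 and 392 in Tg TAC, against 495 in WT TAC replicate 2 and 728 in the library labelled WT TAC replicate 1. In Sham hearts it gave 468 in the library labelled Tg Sham, against 755 in WT Sham. The brightest arrays on this probe were WT Sham and the library labelled WT TAC replicate 1, and the dimmest was Tg TAC replicate 2. Probe ILMN_3043245 gave 246 and 238 in Tg TAC, against 243 in WT TAC replicate 2 and 301 in the library labelled WT TAC replicate 1, with 249 in the library labelled Tg Sham against 287 in WT Sham. It was among the steadiest probes of the array, with a log2 range of 0.30, and only 6.82% of tested probes had a smaller one. Probe ILMN_2556191 lay between 102 and 109 and was detected on no array.

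**Figure D1:**
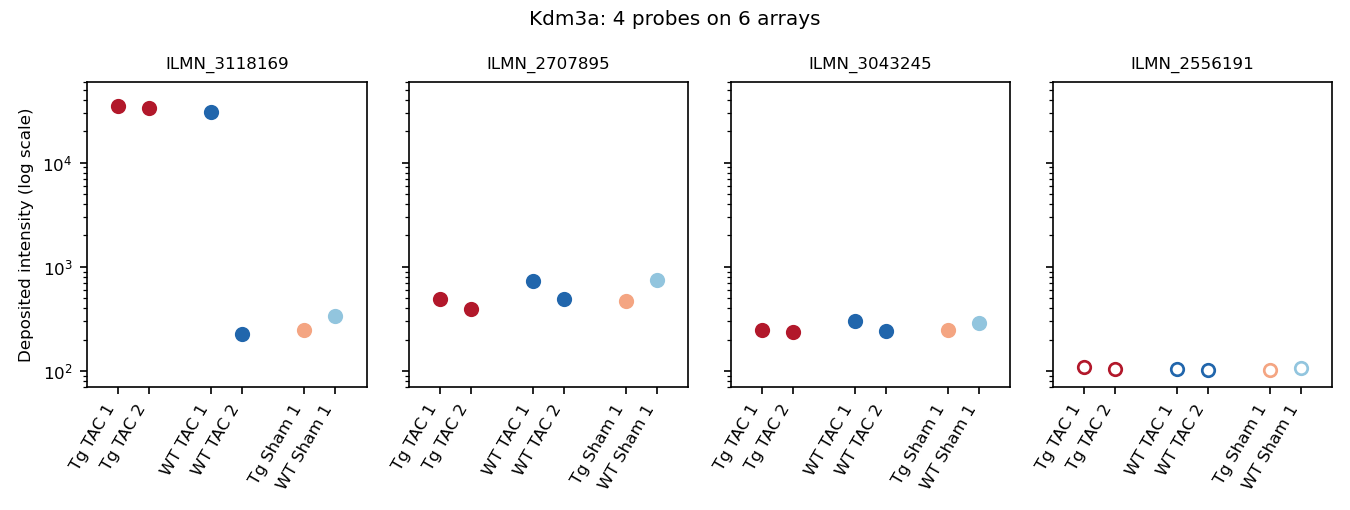
Deposited intensity of the 4 *Kdm3a* probes on each of the 6 arrays (log axis), with 1 point per mouse. Filled points are detected (p below 0.01) and open points are not. On ILMN_3118169 the 2 Tg TAC arrays and the library labelled WT TAC 1 lie between 30614 and 34642 and the other 3 arrays between 229 and 341, a step that the other probes do not have.

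The 4 probes therefore gave different readings of 1 gene. Their places relative to the transgene cDNA are not given in the sources used here, and a probe outside the cDNA reads only the mouse's own *Kdm3a* and checks no genotype. On ILMN_2707895 and ILMN_3043245 no Tg TAC array was brighter than the brightest WT array. Because of the step, differences were also computed without these 2 libraries, a choice made on this probe's own values. The genotype difference then sets the 2 Tg TAC arrays against WT TAC replicate 2, whichever comparison is named, and the surgery difference sets WT TAC replicate 2 against WT Sham. By the labels that surgery difference sets animal 17 against animal 444. Surgery and the series of animal numbers cannot be told apart in it. Such values are given below for many of the described probes whose genotype difference turned or moved by over 1.5 times, and for a few others. A probe given without such a value was not thereby shown to be steady. Over all tested probes the library labelled Tg Sham correlated best with WT TAC replicate 2 (r = 0.989), and the library labelled WT TAC replicate 1 correlated best with WT Sham (r = 0.984). These correlations are across probes, which are not replicates, and every pair of arrays had an r of at least 0.958.

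The spread inside WT TAC decided what could be tested on ILMN_3118169. In normalized log2 intensity it averaged 15.08 ± 0.02 in Tg TAC and 10.94 ± 5.31 in WT TAC (SD, n = 2 each). Tg TAC exceeded WT TAC by 4.14 ± 2.22 log2 units (SE), a difference that did not pass the threshold (limma, adjusted p = 0.69). Without the 2 doubted libraries the difference was 7.89. Those libraries were set aside on this probe's own values, so this is a description of the step and no test is read from it. Tg TAC exceeded the single Tg Sham array by 7.60 ± 2.72 (adjusted p = 1.00). WT TAC exceeded WT Sham by 3.12 ± 2.72 (adjusted p = 1.00), and WT TAC replicate 2 by itself lay 0.64 below it (difference -0.64), a comparison of 1 array with 1. Between the Sham hearts, the library labelled Tg Sham lay 0.35 below WT Sham (difference -0.35), again 1 array against 1. With both genotypes together, TAC exceeded Sham by 5.36 ± 1.93 (adjusted p = 0.75). Without the doubted libraries no Tg Sham array is left, and only the WT value of -0.64 remains. Over both surgeries Tg exceeded WT by 2.64 ± 1.82 (adjusted p = 0.53). The interaction of genotype and surgery was 4.49 ± 3.85 (adjusted p = 1.00). A probe of 1 atrial muscle marker lay high on the same 3 arrays as the step. *Myl4*, an atrial myosin light chain and the 1 of 4 atrial markers that was measured, had a log2 intensity of 9.05 and 8.71 in Tg TAC, against 6.75 in WT TAC replicate 2 and 8.41 in the library labelled WT TAC replicate 1, with 7.38 in the library labelled Tg Sham against 7.10 in WT Sham. The other atrial probes did not follow it. Those of *Bmp10* and *Sln* and a second *Myl4* probe were detected on 0 arrays. The *Myl7* probe was detected on 1, and was at 4.77 and 4.81 in Tg TAC, against 5.42 in the library labelled WT TAC replicate 1. The part of *Myl4* in the differences on these arrays was not tested.

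Probe ILMN_2707895 ran the other way in its measured values. Its log2 intensity averaged 8.53 ± 0.15 in Tg TAC and 8.88 ± 0.22 in WT TAC (SD, n = 2 each), and both Tg TAC arrays lay below both WT TAC arrays. The difference was -0.35 ± 0.21 (adjusted p = 0.71). Over both surgeries Tg minus WT was -0.40 ± 0.15 (adjusted p = 0.29), with only the library labelled Tg Sham (8.74) above the lowest WT array (8.73), and without the doubted libraries it was -0.20 ± 0.25. On ILMN_3043245 the same difference was -0.04 ± 0.14 (adjusted p = 0.92). Neither of these *Kdm3a* probes passed the threshold in any comparison.

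The 3 tested probes most like ILMN_3118169 in pattern were ranked by the root mean square difference of centred log2 values over the 6 arrays. The first was a probe of *3110040M04Rik*, at 1.86 log2 units. Its intensity was 5230 and 3391 in Tg TAC, against 194 in WT TAC replicate 2 and 1746 in the library labelled WT TAC replicate 1, with 395 in the library labelled Tg Sham against 301 in WT Sham. The next were both probes of *Slc1a2*, a glutamate transporter best known from glia, at 2.06 and 2.34. On the first of them, ILMN_3076439, Tg TAC gave 391 and 464, and the library labelled WT TAC replicate 1 gave 397, and it was detected on none of the other 3 arrays. These probes were picked for this likeness, which is therefore no support for the step. The 8 other tested probes of H3K9 enzymes had differences of 3.63 to 3.85 from the step, and the nearest of them, *Ehmt2* ILMN_2705367, ranked 3224 among the 17014.

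No further KDM3 enzyme was measured. The 2 probes of *Kdm3b* lay at intensities of 107 to 124 and the probe of *Jmjd1c* at 110 to 129, and neither gene was detected on any array. Of the KDM4 enzymes, *Kdm4a* was at the edge of detection. Its probe ILMN_2468327 gave 113 and 115 in Tg TAC, against 111 in WT TAC replicate 2 and 133 in the library labelled WT TAC replicate 1, with 120 in the library labelled Tg Sham against 154 in WT Sham, where alone it was detected. A second probe, ILMN_1229847, was likewise detected only in WT Sham, at 135, with 120 to 122 on the other 5 arrays. The third *Kdm4a* probe was detected on none. On both of the first 2 probes WT Sham was therefore the brightest array, and with 1 array and values this near background no fold was computed. The median intensity of all probes was 113 to 120 per array, and most of these dim probes lay near it.

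**Figure D2:**
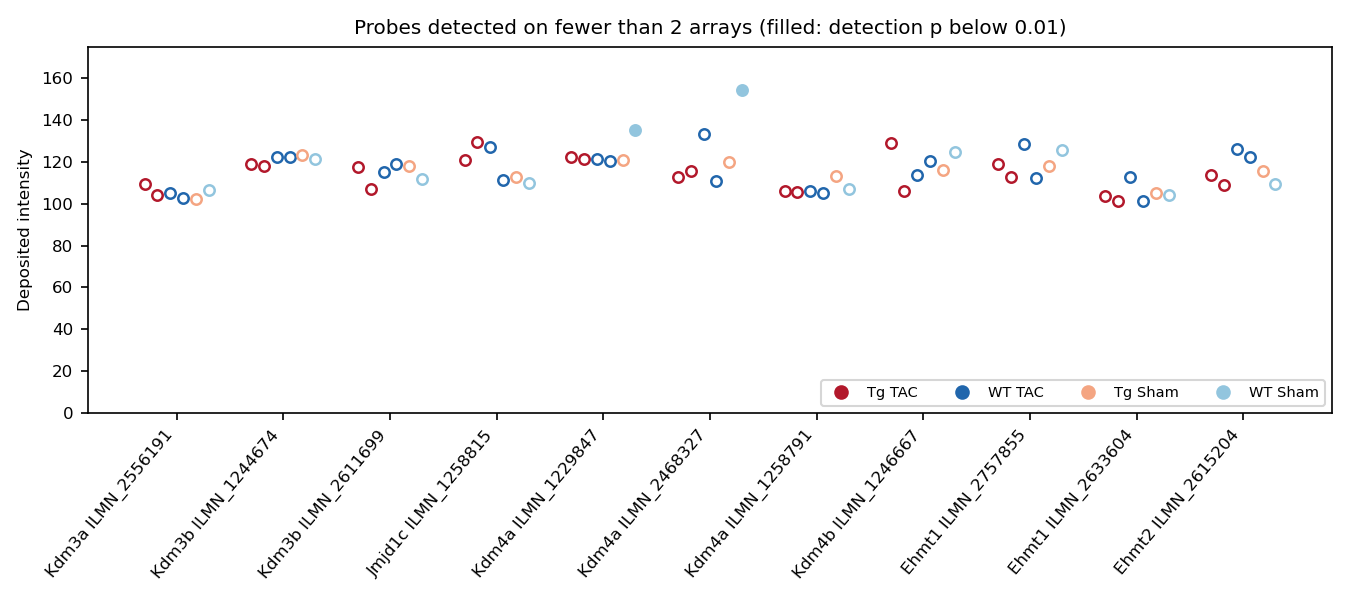
Deposited intensity (linear axis from 0) of the 11 probes of H3K9 enzymes that were detected on fewer than 2 arrays, with 1 point per array coloured by group. Filled points, the WT Sham array on 2 *Kdm4a* probes (135 and 154), are the only ones with a detection p-value below 0.01.

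The other 9 probes, of *Kdm3a*, *Kdm4b*, *Kdm4c*, *Ehmt2* and *Setdb1*, were detected on all 6 arrays and entered the tests. *Kdm4c*, which removes tri- and dimethyl H3K9, had the clearest split by genotype among the enzymes other than *Kdm3a*. Its log2 intensity was 6.70 and 6.71 in Tg TAC, against 6.31 in WT TAC replicate 2 and 6.03 in the library labelled WT TAC replicate 1. In Sham hearts it was 6.58 in the library labelled Tg Sham, against 5.91 in WT Sham. All 3 Tg arrays lay above all 3 WT arrays. The difference between Tg and WT over both surgeries was 0.58 ± 0.16, a fold of 1.50, and did not pass the threshold (adjusted p = 0.22). Its size depended on the processing, at 0.27 with no background correction and with the authors' normalized table. Tg TAC exceeded WT TAC by 0.54 ± 0.22 (adjusted p = 0.65). Without the doubted libraries the difference between Tg and WT was 0.40 ± 0.29 (adjusted p = 0.87).

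*Kdm4b*, a demethylase of the same family, was read by 2 detected probes. On ILMN_2990420 the log2 intensity was 9.69 and 9.55 in Tg TAC, against 9.37 in WT TAC replicate 2 and 9.25 in the library labelled WT TAC replicate 1, with 9.67 in the library labelled Tg Sham against 9.34 in WT Sham. Here too the 3 Tg arrays lay above the 3 WT arrays, by 0.32 ± 0.12 log2 units over both surgeries (adjusted p = 0.30). On ILMN_2650915 the arrays of the genotypes overlapped, with 6.90 and 6.57 in Tg TAC, against 6.68 in WT TAC replicate 2 and 6.35 in the library labelled WT TAC replicate 1, with 7.05 in the library labelled Tg Sham against 6.83 in WT Sham. Its difference between Tg and WT was 0.22 ± 0.18 (adjusted p = 0.59). Both probes had a positive difference between genotypes, and neither passed the threshold. Without the doubted libraries they gave 0.25 ± 0.24 and 0.06 ± 0.30. Scaling each array to a common median in place of quantile normalization gave 0.13 and 0.06, on a scale on which the median of all tested probes was itself shifted by -0.15 between Tg and WT.

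*Ehmt2*, which encodes the H3K9 methyltransferase G9a, was read by 2 detected probes. On ILMN_2705367 the log2 intensity was 8.73 and 8.60 in Tg TAC, against 8.52 in WT TAC replicate 2 and 8.72 in the library labelled WT TAC replicate 1, with 8.48 in the library labelled Tg Sham against 8.41 in WT Sham. All 4 TAC arrays lay above both Sham arrays on this probe, by 0.19 ± 0.14 (adjusted p = 0.81). On ILMN_3147724 TAC and Sham arrays overlapped, with a difference of 0.00 ± 0.16. Between Tg and WT the probes differed by 0.06 ± 0.14 and 0.23 ± 0.15 (adjusted p = 0.88 and 0.51), and without the doubted libraries by 0.15 ± 0.25 and 0.38 ± 0.27. With median scaling the first turned to -0.13 and the second was 0.05. A further *Ehmt2* probe and both probes of its partner *Ehmt1* were detected on no array, at intensities of 109 to 126 and 101 to 129. The partner of EHMT2 therefore had no measured level in these hearts.

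*Setdb1*, which writes trimethyl H3K9, gave log2 intensities of 6.92 and 6.85 in Tg TAC, against 6.88 in WT TAC replicate 2 and 6.89 in the library labelled WT TAC replicate 1. In Sham hearts it was 6.74 in the library labelled Tg Sham, against 7.11 in WT Sham. The 4 TAC arrays lay close together, between the 2 Sham arrays. Tg TAC minus WT TAC was 0.00 ± 0.20 (adjusted p = 1.00). Tg minus WT over both surgeries was -0.12 ± 0.16 (adjusted p = 0.75), and 0.01 ± 0.27 without the doubted libraries.

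**Figure D3:**
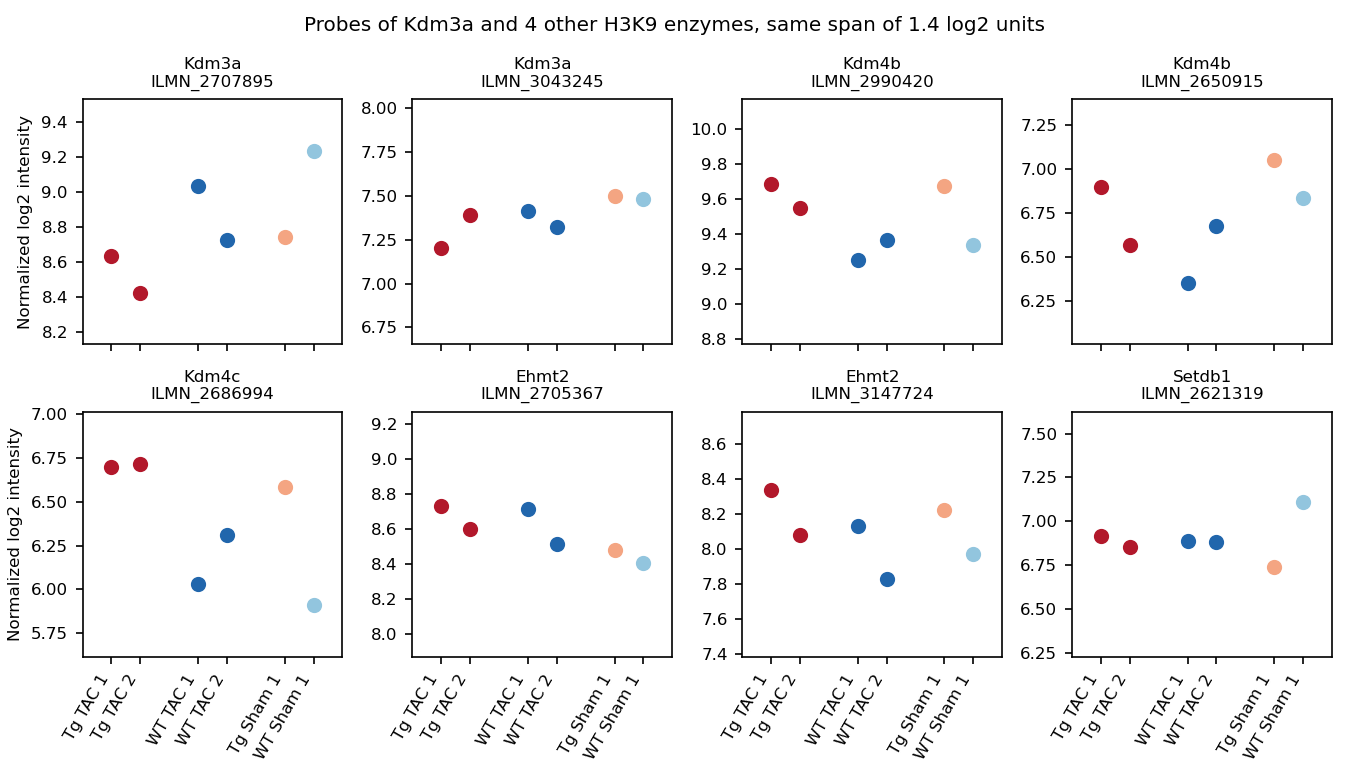
Normalized log2 intensity of the 8 detected probes other than ILMN_3118169, with 1 point per array and each panel spanning 1.4 log2 units. The 3 Tg arrays lie above the 3 WT arrays for *Kdm4c* and for *Kdm4b* ILMN_2990420, and the *Setdb1* values of the TAC arrays nearly coincide.

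Across the array as a whole, 0 of 17014 probes passed an adjusted p of 0.05 in any of these comparisons as fitted (0% in each, limma, with no replicate block), and no probe of an H3K9 enzyme did. At an unadjusted p below 0.05 there were 1321 probes (7.76%) in Tg TAC against WT TAC and 2562 (15.1%) in Tg against WT over both surgeries. The corresponding counts were 1109 (6.52%) in TAC against Sham, 492 (2.89%) in Tg TAC against Tg Sham, 371 (2.18%) in WT TAC against WT Sham and 166 (0.976%) for the interaction. The methods' t-test gave 1295 probes in Tg TAC against WT TAC, 1897 in Tg against WT and 595 in TAC against Sham, and 0 after adjustment in each. Of the 9 tested probes of H3K9 enzymes, 0 were below an unadjusted 0.05 in Tg TAC against WT TAC. In Tg against WT there were 3, higher on *Kdm4c* and *Kdm4b* ILMN_2990420 and lower on *Kdm3a* ILMN_2707895. In TAC against Sham and in Tg TAC against Tg Sham only *Kdm3a* ILMN_3118169 was below it, and in WT TAC against WT Sham and the interaction none was.

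Counts of arrays that did not overlap were read against the same background. In Tg TAC against WT TAC, 3 of the 9 probes had both Tg arrays above both WT arrays, against 19.9% of all tested probes, and 1 had them below, against 19.8%. In Tg against WT, 2 of 9 had all 3 Tg arrays above, against 9.26%, and 0 had them below, against 9.66%. In TAC against Sham, 1 of 9 had all TAC arrays above, against 5.48%, and 1, *Kdm3a* ILMN_3043245, had them below, against 5.41%. With 9 probes of 5 genes, several of which share a gene, these counts do not set the enzymes apart from the rest of the array. The median difference of the 6 probes other than *Kdm3a* was 0.22 in Tg TAC against WT TAC and 0.23 in Tg against WT, beside medians of 0.00 and 0.01 over all tested probes.

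**Figure D4:**
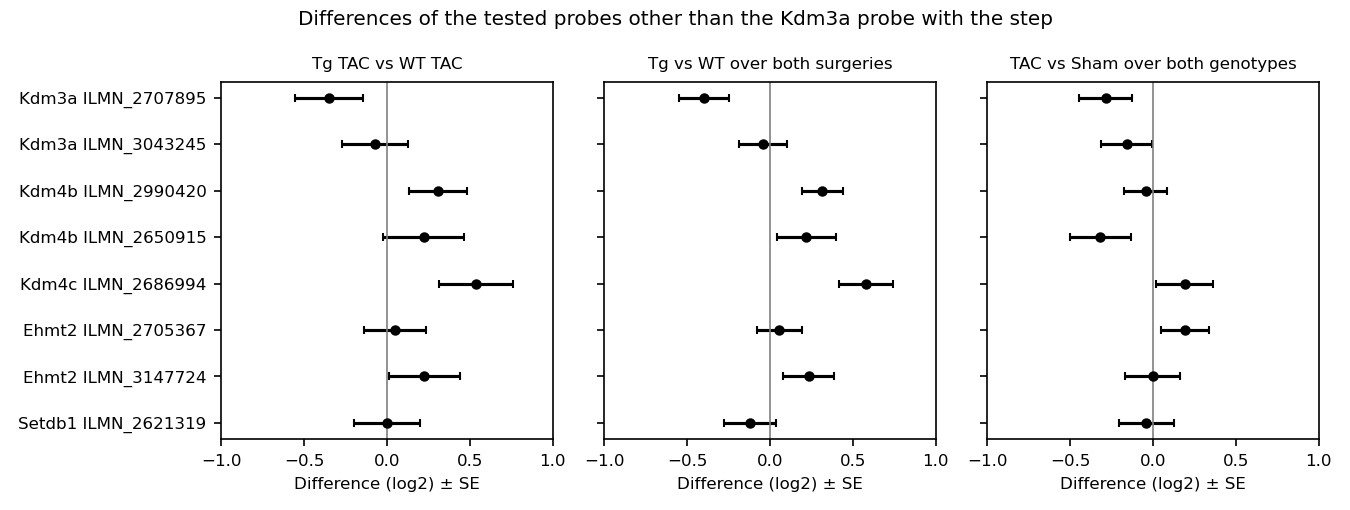
Difference in log2 intensity with its standard error from limma for the 8 detected probes other than ILMN_3118169, in Tg TAC against WT TAC, Tg against WT and TAC against Sham. *Kdm4c* lies furthest to the right in both genotype panels (0.54 and 0.58) and *Kdm3a* ILMN_2707895 furthest to the left (-0.35 and -0.40), and none passes an adjusted p of 0.05.

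The wider H3K9 machinery was taken as a list of 20 further erasers, writers, partners and readers, and set beside 9 demethylases of other histone lysines. Of these 29 genes, 22 had a tested probe, with 33 tested probes in all. None passed the threshold. In Tg against WT, 7 of the 33 were below an unadjusted 0.05, 1 higher and 6 lower. Of all tested probes 2562 (15.1%) were below it, 1238 higher and 1324 lower. The arrays of the genotypes did not overlap on 13 of the 33 (39.4%, against 18.9% of all tested probes), 5 higher in Tg and 8 lower. All tested *Kdm6b* probes are among the 13, in both directions, and 1 of them was detected only in Tg TAC. The count also rests on the labels of the doubted libraries, and the lists were chosen with earlier results of these data known. It does not set the lists apart from the rest of the array.

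Among the writers' partners, *Zfp644* and *Wiz*, zinc finger proteins that bind the G9a-GLP pair, had the lowest Tg minus WT differences. *Zfp644* was at a log2 intensity of 8.25 and 8.20 in Tg TAC, against 8.83 in WT TAC replicate 2 and 8.92 in the library labelled WT TAC replicate 1, with 8.21 in the library labelled Tg Sham against 9.01 in WT Sham. The 3 Tg values nearly coincided and lay below all WT values. Tg minus WT was -0.69 ± 0.13 (adjusted p = 0.18), and -0.60 ± 0.24 without the doubted libraries. *Wiz* ILMN_3095005 was at 6.08 and 6.54 in Tg TAC, against 6.72 in WT TAC replicate 2 and 7.07 in the library labelled WT TAC replicate 1, with 6.35 in the library labelled Tg Sham against 7.56 in WT Sham. Its difference was -0.79 ± 0.22 (adjusted p = 0.22), or -0.41 ± 0.33 without the doubted libraries, and its other probe ILMN_1221828 gave -0.25 ± 0.17. *Atf7ip*, a partner of SETDB1, gave differences of 0.26 ± 0.14 and -0.12 ± 0.19 on its 2 probes, and the second turned to 0.30 without the doubted libraries. *Trim28*, the corepressor that brings SETDB1 to zinc finger targets, gave -0.05 ± 0.12 between genotypes. In TAC against Sham it gave -0.11 ± 0.12 (adjusted p = 0.87), the only one of the 33 probes on which those arrays did not overlap.

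Of the further erasers, *Phf2*, a Jumonji demethylase of dimethyl H3K9, had log2 intensities of 7.77 and 8.24 in Tg TAC, against 8.44 in WT TAC replicate 2 and 8.46 in the library labelled WT TAC replicate 1, with 8.33 in the library labelled Tg Sham against 8.94 in WT Sham. Its difference between Tg and WT was -0.50 ± 0.17 (adjusted p = 0.26). *Kdm7a*, which acts on dimethyl H3K9 and H3K27, was read in opposite directions by its 2 probes, 0.34 ± 0.20 and -0.24 ± 0.11, and the first was detected on only 4 arrays and stood at 0.62 without the doubted libraries. *Kdm1a*, the amine oxidase LSD1, gave -0.01 ± 0.13. Of the further writers, *Mecom*, a zinc finger factor of the PRDM family, was at 5.84 and 6.14 in Tg TAC, against 5.66 in WT TAC replicate 2 and 5.67 in the library labelled WT TAC replicate 1, with 6.20 in the library labelled Tg Sham against 5.46 in WT Sham, a difference between genotypes of 0.46 ± 0.19 (adjusted p = 0.32). *Prdm16*, at 0.06, and both probes of *Prdm2*, at 0.08 and 0.19, had small genotype differences. That of *Prdm16* turned to -0.34 without the doubted libraries and to -0.11 with median scaling, and those of *Prdm2* became 0.02 and 0.34 without the doubted libraries.

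Among the readers of methylated H3K9, the heterochromatin proteins *Cbx3* and *Cbx5* did not give 1 direction. The 2 *Cbx3* probes differed between Tg and WT by 0.27 ± 0.14 and -0.19 ± 0.14, and *Cbx5* by 0.34 ± 0.19, or 0.21 without the doubted libraries. *Uhrf1*, a reader that links the mark to DNA methylation in dividing cells, was chosen for mention after its values were seen. It was at 7.72 and 5.95 in Tg TAC, against 5.77 in WT TAC replicate 2 and 7.33 in the library labelled WT TAC replicate 1, so that both replicates numbered 1 were far above both numbered 2, whichever the genotype. Its difference between Tg and WT was 0.02, and 1.07 without the doubted libraries.

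Of the 14 probes of demethylases of other lysines, 4 had all Tg arrays below all WT arrays and 2 had them above. Of the 19 probes of other H3K9 genes, 4 had them below and 3 above. Over all tested probes the shares were 9.66% below and 9.26% above. *Kdm6a* (H3K27) on ILMN_2506528 was at 7.59 and 7.39 in Tg TAC, against 7.93 in WT TAC replicate 2 and 8.06 in the library labelled WT TAC replicate 1, with 7.52 in the library labelled Tg Sham, a difference of -0.48 from WT Sham. Its difference was -0.50 ± 0.14 (adjusted p = 0.22), while its other probe gave -0.08 ± 0.16, or -0.24 without the doubted libraries. *Kdm6b*, a second H3K27 demethylase, gave -0.49 ± 0.14, 0.26 ± 0.14 and 0.35 ± 0.20 on its 3 probes, with no overlap between genotypes on any of them. The last, ILMN_2693361, was detected only on the 2 Tg TAC arrays. It entered the tests only through the group in which it was brightest, so its lack of overlap is no support for a difference. *Kdm2a*, which acts on H3K36, was at 9.69 and 9.46 in Tg TAC, against 10.08 in WT TAC replicate 2 and 10.33 in the library labelled WT TAC replicate 1, a difference of -0.63 ± 0.19 (adjusted p = 0.64). In Sham hearts it was at 10.09 in the library labelled Tg Sham, against 10.27 in WT Sham. Probes of 1 gene thus disagreed in sign for *Kdm6b*, *Kdm5b*, *Kdm7a*, *Cbx3* and *Atf7ip*, as the probes of *Kdm3a* did, and a single probe is not a full reading of its gene.

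**Figure D5:**
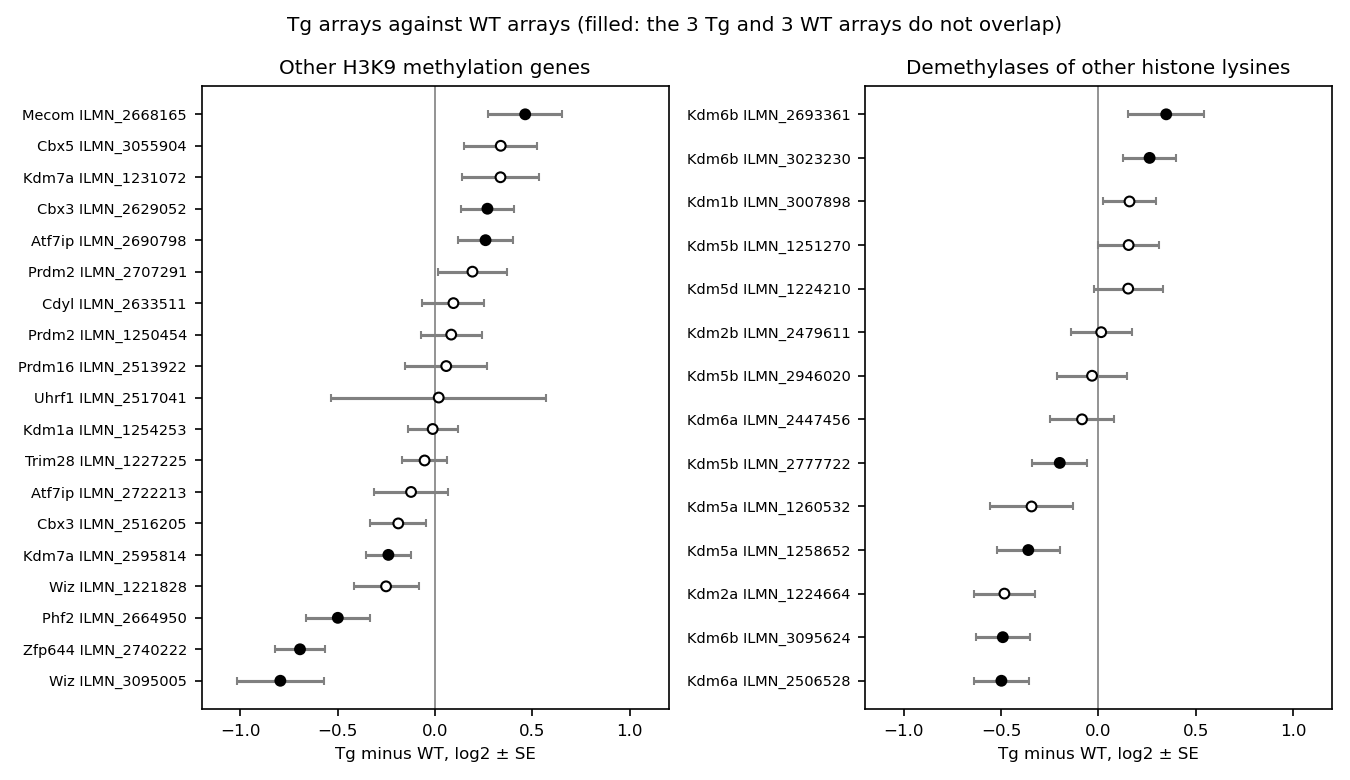
Tg minus WT difference in log2 intensity over both surgeries, with its standard error from limma, for 19 probes of other H3K9 genes and 14 probes of demethylases of other lysines. Filled points are the 13 probes on which the 3 Tg and 3 WT arrays do not overlap, from *Wiz* at -0.79 to *Mecom* at 0.46. None passes an adjusted p of 0.05.

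The response to TAC was set side by side in the 2 genotypes, each against its single Sham array. *Kdm4c* gave 0.12 ± 0.28 in Tg and 0.26 ± 0.28 in WT, *Kdm4b* ILMN_2650915 gave -0.31 ± 0.30 in Tg and -0.32 ± 0.30 in WT, and *Ehmt2* ILMN_2705367 gave 0.18 ± 0.23 in Tg and 0.21 ± 0.23 in WT. *Kdm3a* ILMN_2707895 gave -0.22 ± 0.25 in Tg and -0.35 ± 0.25 in WT. These responses differed between the genotypes by less than their standard errors. That of *Setdb1*, 0.14 in Tg and -0.22 in WT, differed by 0.37 ± 0.35. WT TAC replicate 2 by itself differed from WT Sham by 0.40 on *Kdm4c*, -0.16 on *Kdm4b* ILMN_2650915, 0.11 on *Ehmt2* ILMN_2705367 and -0.51 on *Kdm3a* ILMN_2707895, and no Tg response can be had without the library labelled Tg Sham. In the lists the lowest responses without overlap were those of *Kdm2a* in Tg (-0.51 ± 0.23) and *Wiz* ILMN_3095005 in WT (-0.67 ± 0.32). *Kdm6b* ILMN_3095624 gave -0.38 ± 0.24 in Tg and -0.37 ± 0.24 in WT.

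The arrays detected 15643 to 16492 probes each. Of the defining markers of cardiomyocytes, 9 of 10 were measured and their summed log2 level was 17.63 to 17.83 in Tg and 17.57 to 17.78 in WT. Markers of other cells were present too. Of the macrophage markers, 7 of 8 were measured, with a summed log2 level of 11.78 to 12.38 in Tg and 11.93 to 12.57 in WT, and 1 of the 7 was higher in Tg than in WT (median difference -0.23). All 7 were higher in TAC than in Sham (median 0.32). The 8 measured fibroblast markers summed to 14.24 to 14.53 in Tg and 14.26 to 14.64 in WT, and the 7 endothelial markers to 13.53 to 14.00 in Tg and 13.69 to 14.03 in WT. The 4 measured of 5 markers of skeletal muscle, a list that includes the *Acta1* actin gene also used by the heart, summed to 13.34 to 15.15 in Tg and 14.08 to 14.78 in WT. In TAC against Sham, 6 of the 8 fibroblast markers (median 0.23) and 3 of the 9 cardiomyocyte markers (median -0.04) were higher. Of the endothelial markers 0 of 7 were higher (median -0.19), and of the skeletal muscle markers 0 of 4 (median -0.21). In Tg against WT, 6 of 9 cardiomyocyte (median 0.03), 3 of 8 fibroblast (-0.13), 3 of 7 endothelial (-0.28) and 1 of 4 skeletal muscle markers (-0.27) were higher. All of these markers that were measured were detected on all 6 arrays. The part of these cells in the differences above was not tested.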

How the data were processed

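Ventricular RNA of 6 mice was read on Illumina bead arrays after labelling with biotin. The authors deposited an intensity per probe and array without normalization, and the submitters' processing notes name GenomeStudio 2011.1. Beside each intensity stands a detection p-value, deposited with it, with a smallest step of 1 in 936. Another table from the authors, also deposited, holds linear intensity after quantile normalization (column medians 115.72 to 115.75) and served as an alternative. Scanner settings, chip layout and the genome build of the probes are not given in the sources used here.

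Intensities were background-corrected by normexp in limma 3.58.1 (R 4.3.3), using the detection p-values to infer the negative controls. An offset of 16 was added and log2 values were quantile normalized. A probe was tested where its detection p was below 0.01 on 2 or more of the 6 arrays (17014 probes, 9577 named genes), each probe by itself. Symbols came from the platform annotation, in which 34885 probes had 1 symbol, 18 several and 10378 none, and 34807 matched RefSeq genes by Entrez ID. Group means (2 residual degrees of freedom) and an additive model of genotype and surgery (3) were fitted (lmFit, then eBayes with an intensity trend), and p-values were adjusted by Benjamini-Hochberg over all tested probes, with a threshold of 0.05. The study's methods give no array design, and their t-test was an alternative. A Sham group of 1 array is assumed to vary like the others, and the number of arrays limits the precision. The labels give each mouse its own number, so replicates were separate mice. The code was tested on simulated data.

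The enzymes, lists, markers and alternatives were chosen with earlier results of these data known. All probes of the 10 enzymes were described. From the lists, probes past the threshold and, in each comparison, up to 4 with the largest difference among those without overlap were named, and other probes are given as group members. Promoter windows came from RefSeq (GRCm38.p6), which held both genes looked up.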

Additional observations from a re-analysis of the deposited data

Results flagged for a closer look

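Single Sham arrays enter all 3 results given here. *Setdb1* ILMN_2621319 was above Sham in both Tg TAC arrays (mean response 0.14) and below Sham in both WT TAC arrays (-0.22), a difference between genotypes of 0.37 ± 0.35 log2 units (limma, adjusted p = 1.00). *Prdm16* ILMN_2513922, a writer of monomethyl H3K9, was below Sham in both Tg TAC arrays (-0.45) and above it in both WT TAC arrays (0.36), a difference of -0.81 ± 0.38 (adjusted p = 1.00). *Mecom* ILMN_2668165 was likewise below Sham in Tg TAC (-0.21) and above it in WT TAC (0.21), a difference of -0.42 ± 0.41 (adjusted p = 1.00). On each of these, every TAC array of one genotype moved against every TAC array of the other. They were not the only such probes in the lists. On *Prdm2* ILMN_2707291 Tg TAC was at 7.62 and 7.37, against 7.27 in the library labelled Tg Sham. The arrays labelled WT TAC were at 7.09 and 7.16 there, against 7.44 in WT Sham. *Cbx3* ILMN_2629052, *Kdm5b* ILMN_2777722, *Wiz* ILMN_1221828 and *Kdm6b* ILMN_2693361 also moved in this way. Of these, the *Kdm6b* probe was detected only on the Tg TAC arrays. Both TAC arrays of a genotype are set against the same Sham array, so their directions are not independent. How many of all tested probes did so was not counted, and the pattern is not read as a trait of these genes. None of the differences passed the threshold when the interaction was tested, and each turns on 2 Sham arrays, one of them the library labelled Tg Sham.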

How the results depend on the processing

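With the step probe *Kdm3a* ILMN_3118169, 1 library decided the value in every comparison that used WT TAC. Leaving out each replicate in turn moved its difference between 0.38 and 7.89 in Tg TAC against WT TAC, between -0.64 and 6.87 in WT TAC against WT Sham, between 7.59 and 7.62 in Tg TAC against Tg Sham, between 0.74 and 8.24 for the interaction, between 3.12 and 7.60 in TAC against Sham and between 0.07 and 4.36 in Tg against WT. These values follow from which side of the step was left out. The difference passed the threshold in Tg TAC against WT TAC and in the interaction without WT TAC replicate 1, in WT TAC against WT Sham and in TAC against Sham without WT TAC replicate 2, and in Tg TAC against Tg Sham without either of them. Calls over all probes then ranged between 0 and 2, 0 and 1, 0 and 1, 0 and 1, 0 and 4, and 0 and 14 in the same comparisons. The 14 arose without WT TAC replicate 2, and such fits leave 1 residual degree of freedom fewer. Leaving out both doubted libraries, chosen after seeing the data, gave 2 calls in Tg TAC against WT TAC and 2 in Tg against WT. Both are then the same arrays, the Tg TAC pair against WT TAC replicate 2, and the step probe was one of the calls at 7.89, which the choice of libraries on its own values fixes. It gave -0.64 in WT TAC against WT Sham and in TAC against Sham, both then WT TAC replicate 2 against WT Sham. With no filter on dim probes, 4 probes were called in Tg against WT.

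The replicate numbers 1 and 2 of the TAC groups mark no stated pairing. The difference between replicates 1 and 2 in Tg TAC correlated with that in WT TAC at r = 0.53 over 17014 probes. With the replicate number as a block, Tg TAC against WT TAC gave 298 calls, and none of the 9 probes of H3K9 enzymes was among them. The step probe was then at 4.14 ± 1.27 (adjusted p = 0.12) and *Kdm4c* at 0.54 ± 0.21 (adjusted p = 0.20), while *Kdm2a* passed at -0.63 ± 0.13 (adjusted p = 0.0499). Sham arrays carry no replicate number, so no other comparison was blocked. The animal numbers in the labels are 444 (WT Sham), 454 (Tg Sham), 445 and 446 (TAC replicates 1), and 17 and 18 (TAC replicates 2). What these numbers mark is not stated, and no fit used them.

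Of 741 values of H3K9 enzyme probes under the alternatives, 685 kept direction and side of the threshold and 48 changed sign without a call on either side, 3 of them where the reported difference was over 0.2. The remaining 8 became calls, all on the step probe when libraries were left out, and 0 calls were lost or reversed. The causes of these changes were not tested. For the 11 probes detected on fewer than 2 arrays the signal over background sets the limit, and no difference was tested.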
